A study of Mus musculus with 10 samples.

Results

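The cytosolic ribosome is built from ribosomal RNA and a fixed set of proteins, each encoded by its own gene. The genes were taken by a rule on the symbol, chosen with earlier results of these data known. It took Rpl or Rps with a number and an optional letter, together with Rplp0, Rplp1, Rplp2 and Rpsa. It left out S6 kinase genes, like-named paralogs ending in l and pseudogenes. This gave 76 genes of 18022 listed, 46 of the large subunit and 30 of the small subunit. Of these, 74 passed the filter on low counts. The other 2, Rpl26 and Rpl30, reached at most 6.64 CPM (transcripts per 1000000 transcripts of the library, scaled) in any library and were not tested.

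Transcripts were measured by CEL-seq2, a poly(A)-primed method that counts molecules by a random barcode at the 3' end, in 384-well plates of small-intestinal crypts from C57Bl/6 mice. In 7 libraries each well received 1 sorted cell after dissociation, 5 under the code GK5a (sorted replicates 1 to 5) and 2 under GK5b (sorted replicates 6 and 7). In 3 libraries (codes JC68, JC71 and JC72, picked replicates 1 to 3) each well received a doublet or triplet picked by mouth after milder dissociation. The labels give neither age nor sex, nor a genetic change or drug for any group, and name no animal for any library. All groups carry the same spike-in RNA, which was left out of every total.

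Ribosomal protein genes are transcribed in concert, and the messages of most begin with a run of pyrimidines, the terminal oligopyrimidine tract, through which their translation responds to growth signals. Proliferating cells such as the stem and progenitor cells at the crypt base spend much of their messenger RNA on these genes. Cells that have stopped dividing, such as absorptive enterocytes, spend less.

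Wells with at least 1000 transcripts were used, 1615 sorted and 501 picked. The sorted libraries held 1022859 to 4832581 transcripts in these wells and the picked libraries 821829 to 1232614. Several properties moved with the picked group. Rn45s, the ribosomal RNA precursor row, took 0.261% to 0.926% of transcripts in sorted and 2.56% to 4.02% in picked libraries. Malat1, a nuclear RNA, took 0.0977% to 0.251% and 0.0347% to 0.0685%. Xist was at 0 to 0.91 CPM in sorted and 139.4 to 172.9 CPM in picked libraries, and the Y-linked Ddx3y at 57.05 to 99.1 CPM and at 0, so the sexes differ. Of the 9 Paneth markers listed, 6 were higher in picked libraries and their sum was 0.301% to 1.02% against 0.787% to 7.39%. Of 12 stem markers, 4 were lower and 0 higher, and their sum was 0.0927% to 0.191% against 0.0512% to 0.101%. Their part in the results was not tested. Method of isolation, number of cells per well, experiment code and sex cannot be told apart.

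The start sites of the genes that broke furthest from the group are shown because most messages of the family begin with a run of pyrimidines. RefSeq gives a start for 56 of the 76 genes on GRCm38.p6. A run of at least 8 C or T on the gene's strand lay between 40 bases before and 50 bases after the start in 47 of 56 (83.9%), against 36% of all 27025 genes with a start. On the other strand, where such a run reads as A or G, the shares were 21.4% and 33.9%. Each sequence below is 30 bases with the longest run in capitals. The first 5 belong to members that were high in picked libraries relative to the group, and the last 4 to members that were low. A run at the last base shown may continue beyond it. Relative to the RefSeq start, the runs begin at base 29 (Rpl37), -2 (Rps27), -15 (Rps15a), -18 (Rpl31), -5 (Rplp2), 32 (Rpl6), -20 (Rpl5), 41 (Rps2) and 41 (Rpl10). Only the runs of Rps27 and Rplp2 span that start. Those of Rps15a, Rpl31 and Rpl5 end before it and the others begin after it, so a marked run need not be the terminal tract.
Rpl37: ggcgggggtgCTTTCTCTTCCggtctcttt
Rps27: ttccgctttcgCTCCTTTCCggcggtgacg
Rps15a: gcccggcccaCTCTCTTTCTgccatcttcc
Rpl31: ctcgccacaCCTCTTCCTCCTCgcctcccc
Rplp2: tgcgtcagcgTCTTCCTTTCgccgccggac
Rpl6: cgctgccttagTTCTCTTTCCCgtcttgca
Rpl5: gcctacagccaCTCTTTCTCacgtcgcttg
Rps2: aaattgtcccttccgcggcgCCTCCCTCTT
Rpl10: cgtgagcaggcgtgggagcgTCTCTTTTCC
In gene order as printed, they lie at chr15:5116631-5116660 (plus strand), chr3:90213632-90213661 (minus), chr7:118116143-118116172 (minus), chr1:39367824-39367853 (plus), chr7:141447636-141447665 (plus), chr5:121204521-121204550 (plus), chr5:107900497-107900526 (plus), chr17:24720083-24720112 (plus) and chrX:74270836-74270865 (plus). High and low members alike had such a run: 14 of the 15 members above the group with a RefSeq start, and 13 of 17 below it. These letters describe the window and show neither the start used in these cells nor any control.

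The 76 genes took a larger share of transcripts in picked than in sorted libraries. The median share per well was 13.4%, 14.7%, 14.7%, 13.4% and 14.9% in the GK5a libraries, 12.8% and 13.6% in the GK5b libraries, and 18.7%, 21.8% and 21% in the picked libraries. Every picked library lay above every sorted one. The group means were 13.9% ± 0.845 (SD, n = 7) and 20.5% ± 1.59 (SD, n = 3), a difference of 6.59 percentage points (two-sided exact permutation test over libraries, p = 0.00833, the smallest that 120 splits allow). Against GK5a alone the difference was 6.28 points (exact permutation p = 0.0179), and against GK5b alone 7.36 points (exact permutation p = 0.1, the smallest that design allows).

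**Figure D1:**
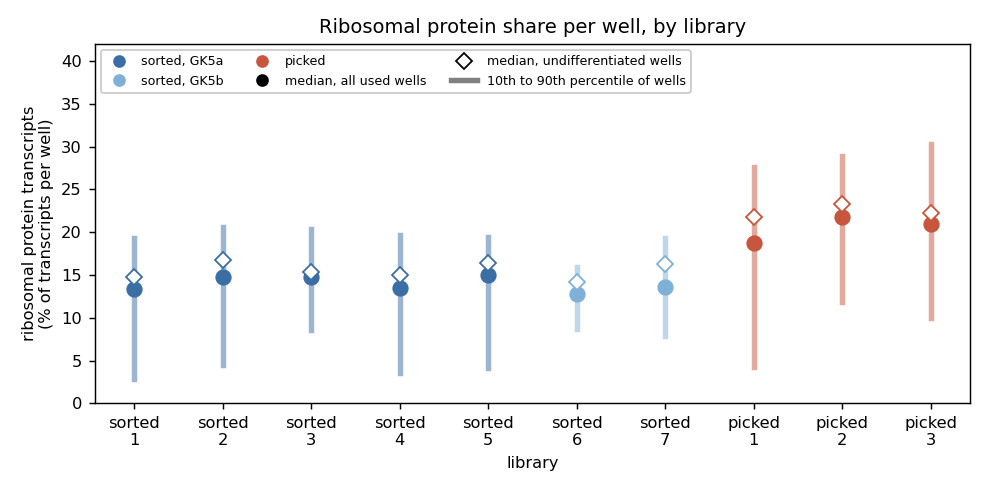
Share of transcripts per well from the 76 ribosomal protein genes (percent, vertical axis) in each library (horizontal axis). Filled circles are medians of all used wells, diamonds medians of undifferentiated wells, and bars run from the 10th to the 90th percentile of wells; the picked medians lie at 18.7% to 21.8% and the sorted ones at 12.8% to 14.9%.

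Wells that the markers assigned to no class, called undifferentiated below, differed in the same direction. Their median share was 14.2% to 16.7% in sorted and 21.8% to 23.3% in picked libraries, a difference of 6.9 points (exact permutation p = 0.00833). Leaving class markers and Rn45s out of the denominator gave a difference of 7.48 points (exact permutation p = 0.00833). GK5b and GK5a differed by -1.08 points (exact permutation p = 0.286, smallest possible 0.0476) and by -0.412 points in undifferentiated wells (exact permutation p = 0.667). Across undifferentiated wells of a library, the Spearman correlation of the share with the well's transcript total ran from -0.24 to 0.42, as a description of wells that share a plate and enter both measures with the same total.

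Both subunits were higher in the picked libraries. Large-subunit genes took 7.8% ± 0.446 of summed transcripts in sorted (SD, n = 7) and 10.9% ± 1.07 in picked libraries (SD, n = 3). Small-subunit genes took 5.78% ± 0.382 (SD, n = 7) and 8.26% ± 0.767 (SD, n = 3). The ratio of large to small was 1.35 ± 0.0318 and 1.32 ± 0.0256, and its difference did not pass an exact permutation test (p = 0.2).

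The share was lower in each marker-defined class than in wells of no class. Wells were assigned by marker genes: a well needed at least 3 markers of a class and 2% of its transcripts from them (tuft 0.5%). Wells of no class are called undifferentiated and may hold class markers below these thresholds. In the sorted libraries this gave 922 undifferentiated, 453 goblet-like, 83 enterocyte-like, 42 enteroendocrine-like, 31 Paneth-like and 25 tuft-like wells. A further 51 passed for several classes and 8 held immune or stromal markers. The Paneth marker Defa30 and the tuft marker Sh2d6 were not among the listed genes. Wells under 1.2 times the threshold numbered 13 goblet-like, 4 enterocyte-like and 1 tuft-like. A doublet caller was not run.

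Undifferentiated wells had a mean share of 15.6% ± 0.851 (SD over 7 libraries, range 14.2% to 16.8%). Goblet-like wells, which secrete mucus, had 12.4% ± 0.997 (7 libraries, 11.2% to 14%) and were lower in 7 of 7 libraries, a difference of -3.15 points (exact sign-flip permutation p = 0.0156, the smallest possible, 0.0781 after Benjamini-Hochberg adjustment over the 5 classes). Tuft-like wells, the chemosensory cells, had 9.51% ± 0.806 in 3 libraries and were lower in 3 of 3, a difference of -6.17 points. Hormone-secreting enteroendocrine-like wells had 8.09% ± 0.875 in 5 libraries and were lower in 5 of 5, a difference of -7.89 points.

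Paneth-like wells, which secrete antimicrobial peptides beside the stem cells, had 5.11% ± 1.59 in 3 libraries and were lower in 3 of 3, a difference of -10.6 points. Absorptive enterocyte-like wells had 2.37% ± 0.538 in 5 libraries and were lower in 5 of 5, a difference of -13.4 points. That is 0.15 times the undifferentiated share, and 0.107 to 0.195 times in single libraries. All 83 enterocyte-like wells lay under the 10th percentile of the undifferentiated wells of their library, against 27.4% of goblet-like wells. The exact sign-flip tests gave adjusted p of 0.104 for enteroendocrine-like and enterocyte-like wells and of 0.25 for Paneth-like and tuft-like wells, the smallest values these numbers of libraries allow. The class ranges of library means did not overlap the undifferentiated range.

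**Figure D2:**
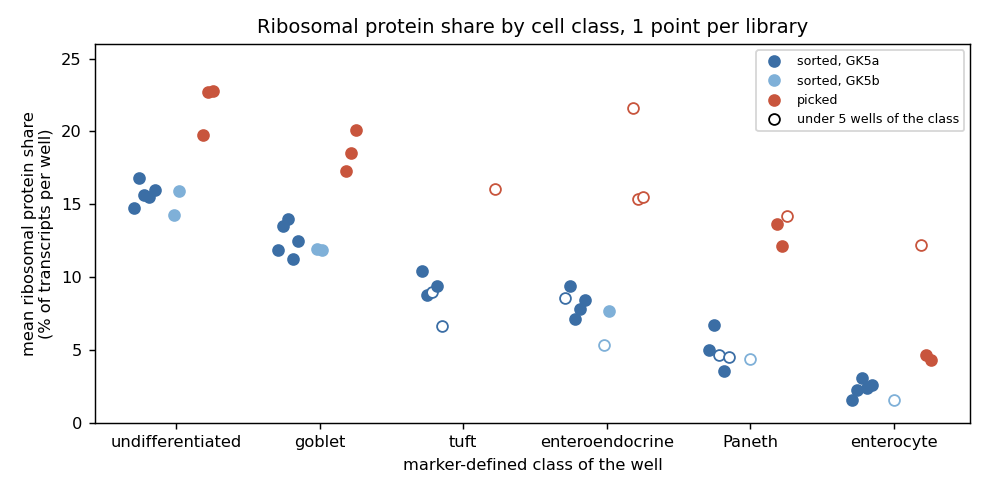
Mean ribosomal protein share per well (percent, vertical axis) by marker-defined class (horizontal axis), 1 point per library, open where a library held under 5 wells of the class. In sorted libraries with at least 5 wells the points fall from 14.2% to 16.8% in undifferentiated wells to 1.58% to 3.05% in enterocyte-like wells, and picked libraries lie higher in each class.

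Marker transcripts displace others in a percentage. With class markers and Rn45s left out of the total, the means were 15.7% in undifferentiated, 13.9% in goblet-like, 9.68% in tuft-like, 9.38% in enteroendocrine-like, 7.15% in Paneth-like and 2.53% in enterocyte-like wells. Depth differed too. The median well held 8760 transcripts if undifferentiated, 9049 if goblet-like, 5582 if Paneth-like, 5106 if tuft-like, 4449 if enterocyte-like and 3386 if enteroendocrine-like. Ribosomal protein transcripts per median well were 1389, 1065, 196.1, 446, 54 and 249.2 in that order.

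Picked wells of a class lay above sorted wells of that class. Undifferentiated wells were at 19.7% to 22.8% in the 3 picked libraries against 14.2% to 16.8% in 7 sorted ones (exact permutation, adjusted p = 0.0167 over the 4 classes compared). Goblet-like wells were at 17.3% to 20.1% against 11.2% to 14% (adjusted p = 0.0167, exact permutation). These tests of picked against sorted libraries by class were added to the plan, which set no test there. For the next pair, Paneth-like wells, the minimum was also lowered from the planned value, to 4 wells of a class per library against 5 elsewhere. At 5 wells, 2 picked and 3 sorted libraries hold Paneth-like wells, too few for an exact permutation p under 0.05. Paneth-like wells were at 12.2% to 14.2% in 3 picked against 3.56% to 6.74% in 4 sorted libraries (exact permutation, adjusted p = 0.0381). Enterocyte-like wells were at 4.31% and 4.67% in 2 picked against 1.58% to 3.05% in 5 sorted libraries (exact permutation, adjusted p = 0.0476). Before adjustment, each of these p-values was the smallest that its number of libraries allows. Paneth markers took a median of 4.23%, 27.2% and 8.71% of transcripts in Paneth-like wells of picked replicates 1 to 3. In the 4 sorted libraries these medians were 25.9% to 30.8%, so the wells compared differ in marker content. A picked well holds a doublet or triplet, so cells of another class enter its share, and their part was not tested.

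Within undifferentiated wells the share was higher where stem and S-phase transcripts were. Wells with at least 2000 transcripts were thinned to 2000 for the score, which left 846 wells and dropped 76. Wells of each library were ranked on a score and cut into 3 equal groups. The group highest in 12 stem genes such as Lgr5 and Olfm4 had a share of 18.3% and the lowest 13%, higher in 7 of 7 libraries by 5.27 ± 0.775 points (SD, n = 7, exact sign-flip permutation, adjusted p = 0.0234 over the 3 scores). The group highest in 13 S-phase genes had 16.8% against 14.1% in the lowest, higher in 7 of 7 by 2.74 ± 0.563 points (SD, n = 7, exact sign-flip permutation, adjusted p = 0.0234). By 16 G2/M genes the shares were 15.4% and 16%, a difference of -0.583 ± 1.28 points that did not pass (SD, n = 7, exact sign-flip permutation, adjusted p = 0.266). The group highest in stem genes held fewer transcripts per well than the lowest in 7 of 7 libraries, 9927 against 14274 on average, and the part of depth in the difference was not tested.

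Among single members, 58 of 74 were higher in picked than in sorted libraries and 0 were lower (limma on log2(CPM + 1) of summed wells, scaled by trimmed mean of M values, Benjamini-Hochberg adjusted p under 0.05). Over all 10427 tested genes 14.4% were higher and 15.7% lower. The members' median log2 difference was 1.01 and that of all genes -0.07. All but 1 member had a positive difference. The picked libraries all lay above the sorted ones in 65 of the 76 members, and in 13.5% of all tested genes. With library totals as the scale, where the median of all genes was -0.39, 48 members were higher and Rpl6 was lower, with a median of 0.68. After subtracting a fitted dependence on length and GC in every library, 39 were higher and Rps2 was lower, with a median of 0.41.

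**Figure D3:**
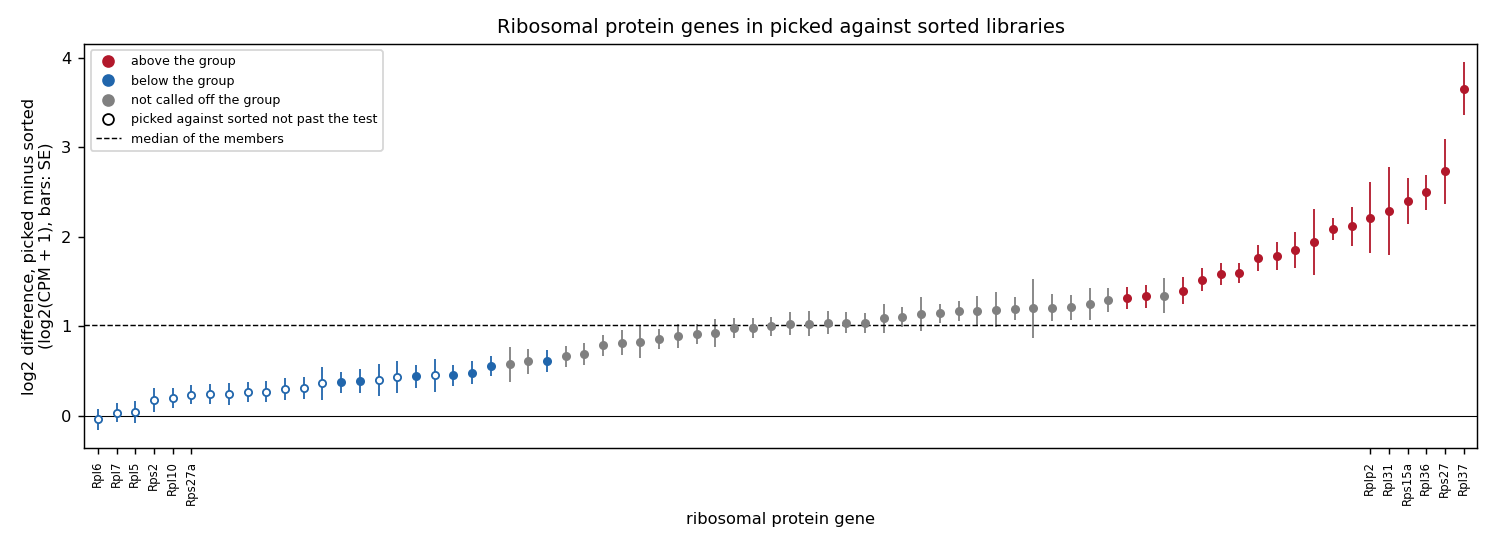
Log2 difference of the 74 tested ribosomal protein genes, picked minus sorted (vertical axis, log2(CPM + 1), bars are standard errors), in order of size along the horizontal axis, with the 6 members furthest above and the 6 furthest below the group named. Red and blue mark members above and below the group, open points did not pass the test of picked against sorted, and the dashed line is the members' median of 1.01; the values run from -0.04 for Rpl6 to 3.66 for Rpl37.

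The members with the highest mean level were Rpsa, Rpl41, Rps12, Rpl13 and Rps2, the last described with the members below the group. CEL-seq2 counts ends of molecules, so their CPM was not divided by length. Rpsa, also known as the laminin receptor precursor, was at 2988 to 6114 CPM (median 5064) in sorted and at 8324, 6845 and 6027 CPM in picked libraries, which overlap. Rps12 was at 2791 to 3567 CPM (median 3068) against 6612, 6242 and 6021 CPM, with no overlap. Rpl41, whose protein is the shortest of the ribosome, was at 2038 to 4086 CPM (median 2936) against 8178, 5697 and 6019 CPM, also with no overlap. Their log2 differences were 0.57, 1.04 and 1.14, and all 3 passed (limma, adjusted p = 0.042, 6.12e-05 and 0.000915). Rpl13 was at 2636 to 3850 CPM (median 3212) against 5778, 5440 and 5264 CPM and passed too (log2 difference 0.81, limma adjusted p = 0.00103).

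To find members that broke from the group, libraries were scaled so that their median member was equal. On this scale 18 members were above the group in picked libraries and 23 below it, and 33 were not called. The background of this scale was 3.49% of all genes higher and 69.2% lower, because the median of all genes is at -0.97 on it. Since most genes are called there, the adjusted threshold let through unadjusted p up to 0.0363. On simulated data the same fit called 10 of 10 members made to break and 6 of 63 that moved with the group. Each break there was a log2 change of 1 from the group, and the spread between libraries was taken from GK5a alone. Smaller breaks were not simulated, so the 10 of 10 does not bear on members called at smaller deviations. At an adjusted p under 0.01, 28 members remained called.

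The members above the group were low or moderate in sorted libraries. Rpl37, a zinc-binding large-subunit protein (chr15:5116645-5119140, plus strand, ENSMUSG00000041841), was at 49.2 to 97.3 CPM (median 86.3) in the 7 sorted libraries and at 848.5, 1756 and 625.2 CPM in the picked ones. The groups did not overlap, and its share of ribosomal protein transcripts was 0.0631% in the median sorted library and 0.364%, 0.764% and 0.286% in the picked ones. Its log2 difference was 3.66 ± 0.29 (SE), and off the group 2.71 ± 0.29 (limma, adjusted p = 7.96e-06).

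Rps27, another zinc-binding protein (chr3:90212522-90213651, minus strand), was at 1.05 to 3.28 CPM in sorted and at 13.3, 36.8 and 19.9 CPM in picked libraries. It was among the 3 tested members with the lowest level, and its deviation was 1.91 ± 0.37 (limma, adjusted p = 0.000523). Rpl36, a large-subunit protein (chr17:56613416-56614243, plus strand), was at 446 to 820 CPM (median 578) in sorted and at 3210.3, 3635 and 3317 CPM in picked libraries. It was 1.55 ± 0.17 above the group (limma, adjusted p = 1.1e-05). Both genes were separated completely between the groups.

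Rps15a, a small-subunit protein (chr7:118104372-118116188, minus strand), was at 97.9 to 222.2 CPM (median 175.7) in sorted and 673, 1182 and 795 CPM in picked libraries, a deviation of 1.46 ± 0.24 (limma, adjusted p = 0.000163). Rplp2, a protein of the stalk that recruits elongation factors (chr7:141447370-141451585, plus strand), was at 65.4 to 252.8 CPM (median 139.1) against 646, 657 and 712 CPM, a deviation of 1.27 ± 0.39 (limma, adjusted p = 0.0101). With the length and GC trend removed, Rplp2 was at 0.92 and no longer passed (limma, adjusted p = 0.0704). Neither gene's groups overlapped.

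Rpl31, which lies near the exit of the peptide tunnel (chr1:39367842-39371911, plus strand), depended on the sorted plates chosen. It was at 122.97, 334.9, 315.5, 163.9 and 269.2 CPM in GK5a, at 789 and 768 CPM in GK5b and at 1372, 1601 and 1753 CPM in picked libraries. Each group lay above the one before. Its deviation against all sorted libraries was 1.34 ± 0.47 (limma, adjusted p = 0.0212), but against GK5b alone it was 0.13 (limma, adjusted p = 0.5). It also missed the threshold without picked replicate 2 or 3, at 1.32 and 1.26 (limma, adjusted p = 0.0609 and 0.0709).

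The remaining 12 members above the group ran from Rps21 at 0.37 to Rps29 at 1.17 and included Rpl38 at 1.14 and Rpl34 at 1.03. Rpl38, known from mouse skeletal patterning, was at 624 to 908 CPM in sorted and at 3370.5, 3555 and 3299 CPM in picked libraries. Rpl34 was at 5.46 to 23.3 CPM against 46.4, 59.9 and 39.8 CPM. For Rpl34, Rps27 and Rplp2 the low level limits how well the fold is known.

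Some reads of these members may be counted at copies elsewhere. No source used here says how reads with several matches were treated. The row Rpl31-ps12, a pseudogene of Rpl31, was at 580 to 1209 CPM in sorted and 2882 to 3126 CPM in picked libraries, above Rpl31 itself in every library. Rps15a-ps6 was at 180.1 to 374.6 CPM and 798 to 949.8 CPM, also above its parent in 9 of 10 libraries. Rps19-ps3 was at 101.96 to 161.65 CPM and 428 to 960.5 CPM. Rplp2-ps1 and Rps15a-ps4 were at 3.21 to 15.7 CPM and 6.37 to 53.1 CPM in sorted libraries, and Rpl34-ps1 was at 0 to 3.86 CPM in all 10. The levels of Rpl31, Rps15a, Rplp2, Rps19 and Rpl34 are therefore uncertain. No copies of Rpl37 and Rps27 are given here, and whether the same holds for their low sorted levels was not tested. The same is true of the low levels of Rpl26 and Rpl30, which may not show their expression.

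The 6 members furthest below the group did not pass the test of picked against sorted, while most of the family did. Rpl6 (chr5:121204481-121209241, plus strand) was at 2047 to 2656 CPM (median 2389) in sorted and 2428, 2192 and 2236 CPM in picked libraries, which overlap. Its log2 difference was -0.04 ± 0.12, and its deviation from the group -0.99 ± 0.14 (limma, adjusted p = 4.11e-05). Its share of ribosomal protein transcripts was 1.66% to 2.14% in sorted and 1.04%, 0.953% and 1.02% in picked libraries, with no overlap.

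Rpl7 (chr1:16101295-16104662, minus strand) was at 1949 to 2409 CPM (median 2202) against 2217, 2259.9 and 2289 CPM, and its deviation was -0.92 ± 0.13 (limma, adjusted p = 4.66e-05). Rpl5, which carries the 5S ribosomal RNA into the ribosome and binds Mdm2 (chr5:107900502-107909005, plus strand), was at 2779 to 3549 CPM (median 3209) against 3228, 3708 and 3051 CPM, and its deviation was -0.91 ± 0.14 (limma, adjusted p = 0.000119). Both genes' groups overlapped in CPM. With the length and GC trend removed, the deviation of Rpl5 was -0.22 and did not pass (limma, adjusted p = 0.277).

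Rps2, at the messenger RNA entry site (chr17:24718116-24721929, plus strand), was at 3002 to 4091 CPM (median 3798) against 3834, 4063 and 4564 CPM, a deviation of -0.77 ± 0.14 (limma, adjusted p = 0.000278). Rpl10, which joins late and licenses the large subunit (chrX:74270812-74273135, plus strand), was at 2935 to 3327 CPM (median 3131) against 3855, 3353 and 3590 CPM, a deviation of -0.75 ± 0.13 (limma, adjusted p = 0.000221). Rps27a, made as a fusion with ubiquitin (chr11:29545846-29548109, minus strand), was at 2183 to 2386 CPM (median 2251) against 2967, 2529 and 2531 CPM, a deviation of -0.72 ± 0.12 (limma, adjusted p = 0.000164). Rpl10 and Rps27a lay higher in every picked library than in any sorted one in CPM, while their shares of ribosomal protein transcripts were lower in every picked library.

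The other X-linked members did not move as 1 set. Rps4x was below the group at -0.5 (limma, adjusted p = 0.00287), at 1864 to 2421 CPM in sorted and 3191, 2914 and 2906 CPM in picked libraries. Rpl36a and Rpl39 were not called off the group, at -0.06 and 0.25 (limma, adjusted p = 0.674 and 0.488). Rpl39, which lines the peptide tunnel, was at 521 to 1544 CPM in sorted and at 1852, 2385 and 2321 CPM in picked libraries, with no overlap despite the wide sorted range.

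Members with a larger difference tended to encode shorter proteins. Over the 74 tested members the Spearman correlation of the log2 difference with coding length was -0.68, and over 9547 other genes -0.11. With the mean level it was -0.66 and -0.02. With GC content it was 0.27 and 0.40, and with transcript length -0.42 and -0.23. The points are genes of the same libraries, and coding length and level are not independent among the members.

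Split by coding length, the shortest 25 members (75 to 405 bases) had a median log2 difference of 1.34, and 24 were higher. The middle 25 (405 to 576 bases) had 0.92 and 20 were higher, and the longest 24 (582 to 1257 bases) had 0.47 and 14 were higher. Other genes within the same length ranges had medians of 0.21, 0.04 and -0.08, and 28.1%, 21.8% and 13.3% of them were higher. Of the 18 members above the group, 14 were among the shortest, 3 in the middle and 1, Rpl8, among the longest. Of the 23 below it, 1, Rps20, was among the shortest, 8 in the middle and 14 among the longest. The length ranges were read from GENCODE M21 coding sequences. The part of library preparation or fragment selection in this relation was not tested.

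**Figure D4:**
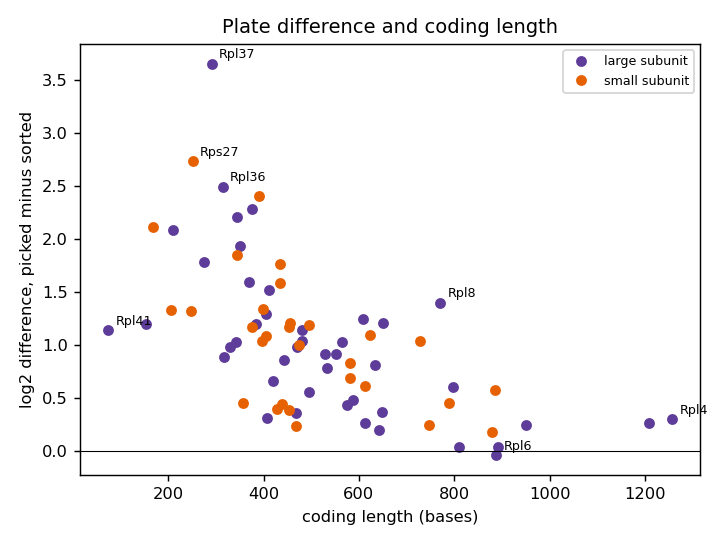
Log2 difference of each tested ribosomal protein gene, picked minus sorted (vertical axis), against its coding length in bases (horizontal axis), coloured by subunit. Long members such as Rpl6 (-0.04) lie lowest and short ones such as Rpl37 (3.66) and Rps27 (2.73) lie highest, while Rpl41, the shortest, is at 1.14 and Rpl8 at 1.40.

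Between the 2 kinds of sorted plate the members moved little. In GK5b against GK5a, 4 of 73 were higher and 3 lower, where 6.09% of all genes were higher and 7.1% lower, so these counts are near the background. Off the group 1 was above and 5 below, with backgrounds of 4.5% and 8.74%. Rpl31 was above the group by 1.67 ± 0.32 (limma, adjusted p = 0.00486), with the values given above.

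The 3 members furthest below the group fell by like amounts. Rps20 was at 3996, 3626, 3539, 3365 and 3498 CPM in GK5a and at 2245 and 2467 CPM in GK5b, a deviation of -0.73 (limma, adjusted p = 0.00351). Rpl23a, which sits at the tunnel exit, was at 2869, 2064, 2385, 2342 and 2353 CPM in GK5a and at 1502 and 1638 CPM in GK5b, a deviation of -0.72 (limma, adjusted p = 0.00521). Rps23, part of the decoding site, was at 3830.3, 3505, 3272, 3482 and 3240.5 CPM in GK5a and at 2243 and 2328 CPM in GK5b, a deviation of -0.71 (limma, adjusted p = 0.00517).

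In all 3 the GK5b libraries lay below every GK5a library. Rps13 was further down the list at -0.45 (limma, adjusted p = 0.046). These calls rest on few libraries: without sorted replicate 6, 0 members were called on either scale by limma, and Rps20 was at -0.68 (limma, adjusted p = 0.111). An unadjusted p under 0.05 was then reached by 9 members on the first scale, 6 higher and 3 lower, and by 6 off the group, 1 above and 5 below. Goblet-like wells were 68.2% of sorted replicate 6, 36% of sorted replicate 7 and 15.4% to 17.4% of the GK5a libraries, and their part was not tested. Rps13 passed in 4 of 15 other settings. In undifferentiated wells alone, which leave goblet-like wells out, 5 members were called off the group, 1 above and 4 below. All 5 were among the 6 called in all wells, and on the first scale 4 of 7 calls were kept.

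By cell class, in sorted libraries, members were called lower in every class but goblet, on sums of wells per library and class with the library as a block. In enterocyte-like wells 70 of 72 members were lower and 0 higher, with a median of -2.39, against 17.2% of 6136 genes lower, 8.85% higher and a median of -0.32 over all genes. In enteroendocrine-like wells 71 were lower with a median of -1.47, where 33.6% of genes were lower, 4.51% higher and the median of all genes was -1.32. In Paneth-like wells 54 were lower with a median of -1.01, where 42.2% were lower, 1.97% higher and the median was -1.95. In tuft-like wells 62 were lower with a median of -1.04, where 23.4% were lower, 2.23% higher and the median was -1.16. In goblet-like wells 0 were called by limma, with a median of -0.29, where 3.03% were lower, 4.07% higher and the median was -0.26. At an unadjusted p under 0.05, 12 members were lower there and 1 was higher.

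Enterocyte-like wells were thus the class in which the members' median lay furthest from that of all genes. Medians of all genes below 0 go with the smaller sums of the rare classes, 11949 to 75529 transcripts for enteroendocrine-like, Paneth-like and tuft-like sums against at least 703165 for undifferentiated ones, and the part of depth was not tested. The Paneth-like count was 21 without sorted replicate 3 and 11 without sorted replicate 7, and the tuft-like count 29 and 27. Neither library holds a Paneth-like or tuft-like sum, and both enter through the spread of the other classes. Scaled to library totals the tuft-like count was 19 and the goblet-like count 2.

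**Figure D5:**
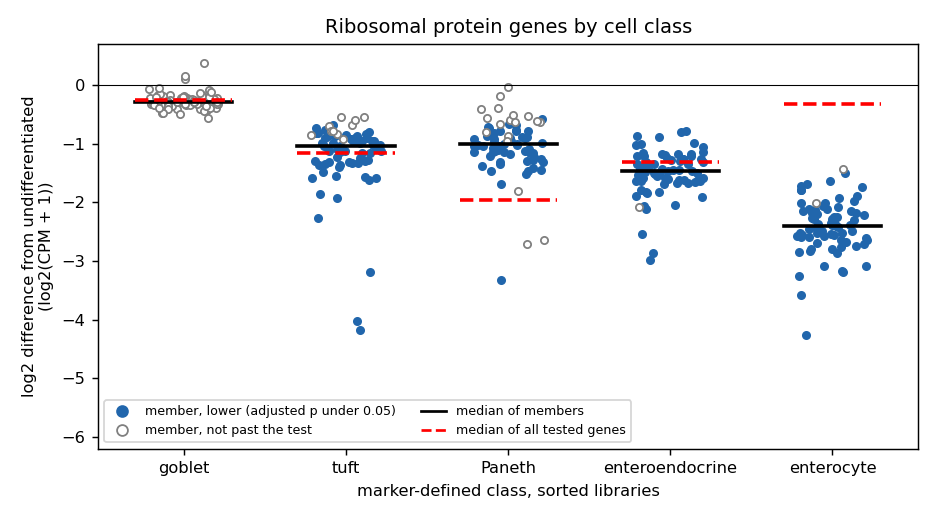
Log2 difference of each tested ribosomal protein gene from undifferentiated wells (vertical axis, log2(CPM + 1)) in each class of the sorted libraries (horizontal axis). Filled points were lower by limma; black lines are the members' medians and red dashed lines the medians of all 6136 tested genes, which lie apart most in enterocyte-like wells (-2.39 against -0.32).

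Within classes, between 1 and 17 of 72 members left the group. The contrasts share the undifferentiated wells, so the same member in several of them is not repeated evidence. Off the group, enterocyte-like wells had 7 members above (46.4% of all genes were) and 10 below (5.49%). Enteroendocrine-like wells had 3 above (9.7%) and 6 below (9.93%), Paneth-like wells 2 above (2.98%) and 1 below (14.2%), tuft-like wells 0 above (3.16%) and 3 below (7.46%), and goblet-like wells 1 above (4.07%) and 0 below (0.799%). Only the enterocyte-like count below the group lay above the share of all genes, and every other count was near or under that share. This scale centres the members, and the median of all genes on it was 1.95 in enterocyte-like and -1.07 in Paneth-like wells. In enteroendocrine-like, tuft-like and goblet-like wells it was -0.13, -0.28 and 0.04. The shares of all genes carry this offset, so they are not a rate expected for members. Values below are percentages of the ribosomal protein transcripts of the class.

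Rpl41 was above the group in 4 classes. It was at 1.38% to 3.11% (median 1.97%) in undifferentiated wells and 2.35% to 4.91% (median 3.11%) in goblet-like wells, a deviation of 0.69 ± 0.16 (limma, adjusted p = 0.00636). It was at 4.33%, 3.87% and 3.92% in Paneth-like wells, at 0.99 ± 0.22 above the group (limma, adjusted p = 0.00261), with 58.1 to 101.2 transcripts per library. In enterocyte-like wells it was at 4.8%, 2.09%, 3.74%, 4.29% and 2.52% (deviation 0.66, limma adjusted p = 0.0036), and in enteroendocrine-like wells at 2.15% to 4.44% (deviation 0.54, limma adjusted p = 0.0344). Only the Paneth-like range stood clear of the undifferentiated one. Such ranges, here and below, ignore the pairing within libraries that the fit uses.

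Rpl10 was above the group in enterocyte-like and enteroendocrine-like wells. It was at 2.08% to 2.58% in undifferentiated wells and at 6.13%, 3.93%, 3.37%, 4.56% and 3.76% in enterocyte-like wells, a deviation of 0.85 ± 0.16 (limma, adjusted p = 7.43e-05), with no overlap. It was at 2.56% to 4.46% in enteroendocrine-like wells, where 1 library fell within the undifferentiated range (deviation 0.46, limma adjusted p = 0.036). Rpl28 was at 0.89% to 1.43% in undifferentiated and 1.36% to 2.83% in enterocyte-like wells (deviation 0.72, limma adjusted p = 0.0073), where the ranges overlap. Rpl18 in enteroendocrine-like wells was at 1.28% to 2.01% against 0.875% to 1.15% (deviation 0.55, limma adjusted p = 0.0484).

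Rpl3, beside the catalytic centre, and Rpl12, near the stalk, fell further than the group in enterocyte-like wells. Rpl3 was at 1.15% to 1.43% in undifferentiated wells and at 0.24%, 0.67%, 1.41%, 0.319% and 0.659% in enterocyte-like wells, a deviation of -1.24 ± 0.24 (limma, adjusted p = 0.000125), and 1 library overlapped. Rpl12 was at 1.65% to 1.97% against 0.82% to 1.14%, a deviation of -0.91 ± 0.18 (limma, adjusted p = 0.000215), with no overlap. Rps15a had the largest deviation there, -2.86 ± 1.02 (limma, adjusted p = 0.0215), on 0, 12, 1, 0 and 15 transcripts, a depth at which its size is not known.

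Rps2 was the member furthest below the group in tuft-like wells. It was at 2.55% to 3.22% in undifferentiated wells and at 1.23%, 1.4% and 1.33% in tuft-like wells, a deviation of -1.3 ± 0.18 (limma, adjusted p = 9.97e-06), on 20 to 104.2 transcripts per library. In enteroendocrine-like wells it was at 1.64% to 3.16%, a deviation of -0.72 (limma, adjusted p = 0.000759). In tuft-like wells Rpsa was at 1.29%, 3.56% and 2.77% against 2.46% to 4.83%, and Rplp1 of the stalk at 1.72%, 1.72% and 1.28% against 2.04% to 2.39%. Their deviations were -0.9 and -0.6 (limma, adjusted p = 0.00382 and 0.0242).

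Of the other named members, Rpl39 and Rpl8 were below the group in enteroendocrine-like wells at -1.2 and -0.78 (limma, adjusted p = 0.00251 and 0.0226). Rpl39 was at 0.412% to 1.2% in undifferentiated and 0.0986% to 0.81% in enteroendocrine-like wells, on 1 to 33 transcripts per library. Rpl8 was at 0.659% to 0.956% and 0.197% to 0.884%. Both pairs of ranges overlap. In Paneth-like wells Rpl37a was above and Rpl15 below the group at 0.83 and -0.67 (limma, adjusted p = 0.0494 and 0.024), on 9 to 33 and 12 to 34 transcripts. Rpl37a was at 0.567% to 1.26% against 0.454% to 0.715% in undifferentiated wells, and 2 of 3 Paneth-like libraries lay within that range. Rpl15 was at 0.722% to 1.3% against 1.42% to 1.75%, with no overlap.

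Ribosomal protein genes that the symbol rule leaves out were mostly higher in picked libraries too. Of 7 tested, 6 were higher in picked libraries and 0 lower, with a median of 1.01, where 14.4% of all tested genes were higher and 15.7% lower. Fau, the precursor of Rps30, was at 505 to 711 CPM in sorted and at 2300.2, 2255 and 2049 CPM in picked libraries (log2 difference 1.83). Rps3a1 was at 2448 to 2773 CPM against 3508, 3606 and 3350.3 CPM (0.43). Neither gene's groups overlapped.

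Of 16 translation factors and other genes known for a like start, 1 was higher and 3 lower in picked libraries, with a median of -0.01. These counts are near the 14.4% and 15.7% of all tested genes, whose median was -0.07. Eef1a1, which brings transfer RNA to the ribosome, was at 7002 to 9861 CPM in sorted and 4545, 4366 and 5574 CPM in picked libraries, with no overlap (log2 difference -0.83, limma adjusted p = 0.00132). Pabpc1, the poly(A)-binding protein, fell by 0.62 (limma, adjusted p = 0.00647), and Eef2, the translocase, was at 0.10 (limma, adjusted p = 0.672).

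Of 32 ribosome assembly genes, 11 were higher and 0 lower in picked libraries, with a median of 0.36, beside 14.4% and 15.7% of all tested genes. The assembly factor Nip7 was at 219.9 to 325.05 CPM in sorted and at 1452, 1729 and 2388 CPM in picked libraries, and Nop56, of the RNA-methylating particles, at 215.8 to 315.95 CPM against 659.8, 945.5 and 737 CPM. Neither overlapped. Of 76 mitochondrial ribosomal protein genes 33 were higher and 3 lower, with a median of 0.35. In enterocyte-like wells 19 of 25 assembly genes were lower (median -3.66) and 14 of 16 translation factors and other like-start genes (median -1.85), beside 17.2% of all genes and the members' median of -2.39. Of 71 mitochondrial ribosomal protein genes 12 were lower there, which is near that background (median -1.58).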

How the data were processed

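CEL-seq2 libraries of 384-well plates were deposited as molecule estimates per gene and well; the submitters' processing notes name BWA 0.6.2-r126 and mm10. The authors' deposited values map back to whole barcode counts (largest distance from a whole number 5e-12) out of 4096 barcodes; no other step is stated. Groups came from the sample titles. Used wells were summed per library. TMM scaling (written for this work) and limma 3.58.1 in R 4.3.3 on log2(CPM + 1) gave member tests over all genes that reached, in 3 libraries, the CPM equal to 10 transcripts in a library of median size, with 15 or more transcripts overall. The unit was recorded as other, so no count model was run. Fold changes understate low genes. On data simulated over 10002 genes, the fit of picked against sorted recovered 70 of 100 genes given a log2 change of 1 and 89 of 100 given 2, and 19 of 9681 unchanged genes were called. Shares were compared by exact permutation over libraries. P-values measure spread between libraries, which may be technical. Positions are from GENCODE M21. The members and lists were chosen with earlier results of these data known. Named members are the 6 furthest above and below the group in each plate comparison, 3 on each side in each class, the 5 highest and 3 lowest tested, and X-linked ones; Rpl38, Rps29, Rps21 and Rpl8 between picked and sorted libraries, Rps20 in the length groups, and the genes outside the family were chosen after their values were seen. Alternatives included another scale, pseudocount 5, no filter, other well minimums and class thresholds, and leaving out each library. No used wells were identical between libraries (0). Some members and related genes that the rule would name are not reported here.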

Additional observations from a re-analysis of the deposited data

How the results depend on the processing

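The share of picked over sorted libraries kept its direction under all settings tried and passed except against GK5b alone (7.36 points, exact permutation p = 0.1, the smallest that design allows); without single libraries it was 5.93 to 7.47 points. Class differences kept their sign, with leave-one-out ranges of -3.39 to -2.97 (goblet-like), -7.08 to -5.23 (tuft-like), -8 to -7.73 (enteroendocrine-like), -11 to -9.9 (Paneth-like) and -13.6 to -13.1 points (enterocyte-like). Counts of members called ranged, without single libraries, from 52 to 57 (picked against sorted), 32 to 43 (off the group), 0 to 12 (GK5b against GK5a) and 0 to 11 (off the group), where sorted replicates 6 and 7 and GK5a libraries 2 and 5 moved them. By class the ranges were 11 to 54 (Paneth-like) and 27 to 64 (tuft-like), lowest without sorted replicate 7, with no value without sorted replicate 1, 2 or 4, which hold all sums of both, and off the group 1 to 2 (Paneth-like), 1 to 2 (goblet-like) and 4 to 14 (enteroendocrine-like). GK5b against GK5a gave 2 calls without the filter on low genes on either scale and 4 in undifferentiated wells. Library totals gave 2 (goblet-like) and 19 (tuft-like). Double class thresholds gave 28 lower members in Paneth-like wells and, off the group, 2 (goblet-like), 6 (Paneth-like) and 32 (enterocyte-like). The length and GC trend, added after seeing the data, left 28 of the 41 off-group calls of picked against sorted. The cause was not tested. No paired analysis was possible because, between picked and sorted or GK5b and GK5a libraries, replicate numbers were given in order of deposit and pair no samples; class contrasts were made within libraries. Depth limits the rare classes and members with under 100 transcripts.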
